A study of Sus scrofa with 4 samples.

Results

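*GZMA*, *GZMB*, *GZMH* and *GZMK*, which encode granzymes, and *KLRK1* and *NCR1*, which encode activating receptors of natural killer (NK) cells, were followed in the ileum of suckling piglets. The members were the non-control probes of a pig array whose accession is a RefSeq transcript of one of these 6 genes in the NCBI gene table of Sscrofa11.1. This gave 10 probes of 43603, in 6 genes of the 2389 that could be named in this way. The genes were chosen by their role and with their low-gain against high-gain differences on these 4 arrays already seen, so their differences between groups are given as a description and without a test.

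RNA came from ileum slices of piglets aged 16 days, nursed by their dams, with Yorkshire × Landrace mothers and Duroc fathers. The low weight gain group had 2 arrays of RNA pooled from 2 piglets, and the high weight gain group had 2 arrays of RNA pooled from 3 piglets, with the letters a and b in each group. Whether a and b are separate pools or repeat arrays of 1 pool is not stated, so every error below measures the spread between arrays, which may be technical, and not the spread between piglets. The series' design text speaks of weight at birth, whereas the sample labels speak of weight gain, and the labels were followed. Between 32835 and 33972 spots per array carried the scanner's flag for signal well above background. *FABP6*, the bile acid binding protein gene that marks ileal epithelium, was among them on all 4 arrays, where its mean log2 signal stood above the array's 75th percentile by 8.68 in low gain and by 8.66 in high gain.

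Granzymes are serine proteases stored in the granules of cytotoxic T cells and NK cells. When such a cell recognises a target, perforin lets the granzymes into the target cell, where granzyme B activates caspases and cleaves BID, while granzymes A and K, which cut after basic residues, act on other proteins. The receptor NKG2D, encoded by *KLRK1*, binds stress-induced ligands related to MHC class I and signals through the adaptor encoded by *HCST*. NKp46, encoded by *NCR1*, is carried mainly by NK cells and innate lymphoid cells and signals through the chains encoded by *CD247* and *FCER1G*. In the gut, many granzyme-bearing cells are lymphocytes that lie within the epithelium.

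All 4 granzyme genes had higher signals on both low-gain arrays than on both high-gain arrays, by about 2-fold for *GZMA* and by 3.18-fold for *GZMK*. *KLRK1* lay 1.57-fold higher in low gain on its brighter probe, and *NCR1* overlapped between the groups. Levels are log2 signals minus the array's 75th percentile, so that 0 is the 75th percentile of the array, and they are compared only within a probe. In RNA from pooled tissue, more cells that carry a transcript and more transcript per cell cannot be told apart.

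*GZMK*, which encodes a granzyme with trypsin-like activity, had the largest difference of the 6 genes. Its single probe read -1.22 and -1.19 on low-gain arrays a and b, against -2.88 and -2.86 on high-gain arrays a and b. The arrays of a group lay within 0.03 of each other in low gain and within 0.02 in high gain, far less than the gap of 1.64 between the groups' nearest arrays. The difference of the means was 1.67 ± 0.10 (log2, SE of the limma fit, n = 2 arrays per group). By size it ranked 7 of 2158 tested genes among differences towards low gain, with *GZMH* at rank 18, *GZMB* at 24, *GZMA* at 40 and *KLRK1* at 100.

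*GZMH* encodes a granzyme that in humans has chymotrypsin-like activity. Its brighter probe read 0.29 and 0.26 on the low-gain arrays, against -0.99 and -1.02 on the high-gain arrays. Its dimmer probe read -0.997 and -1.001 in low gain, against -2.19 and -2.36 in high gain. The groups were well separated on both probes, and the differences were 1.28 ± 0.10 and 1.28 ± 0.12 (SE), so that 2 different probes gave the same size.

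*GZMB*, the caspase-activating granzyme gene, lies next to *GZMH* among the protein-coding genes of the assembly. Its brighter probe read 3.44 and 3.50 in low gain, against 2.28 and 2.31 in high gain. Its dimmer probe read 2.78 and 2.91 in low gain, against 1.94 and 1.93 in high gain. The groups did not overlap on either probe. The differences were 1.17 ± 0.10 and 0.91 ± 0.11 (SE), which were 2.25-fold and 1.88-fold.

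*GZMA* encodes a tryptase and lies next to *GZMK* on another chromosome than the *GZMB* and *GZMH* pair. Its brighter probe read 0.04 and 0.07 in low gain, against -0.95 and -0.92 in high gain. Its dimmer probe read -1.21 and -1.28 in low gain, against -2.17 and -2.28 in high gain. Again neither probe overlapped between groups, with differences of 0.99 ± 0.10 and 0.98 ± 0.11 (SE), or 1.99-fold and 1.97-fold. The assembly holds a second neighbouring gene that is also called *GZMA*, and no probe on the array carried its accession. Granzyme genes are related in sequence, and cross-hybridisation between them was not tested.

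**Figure D1:**
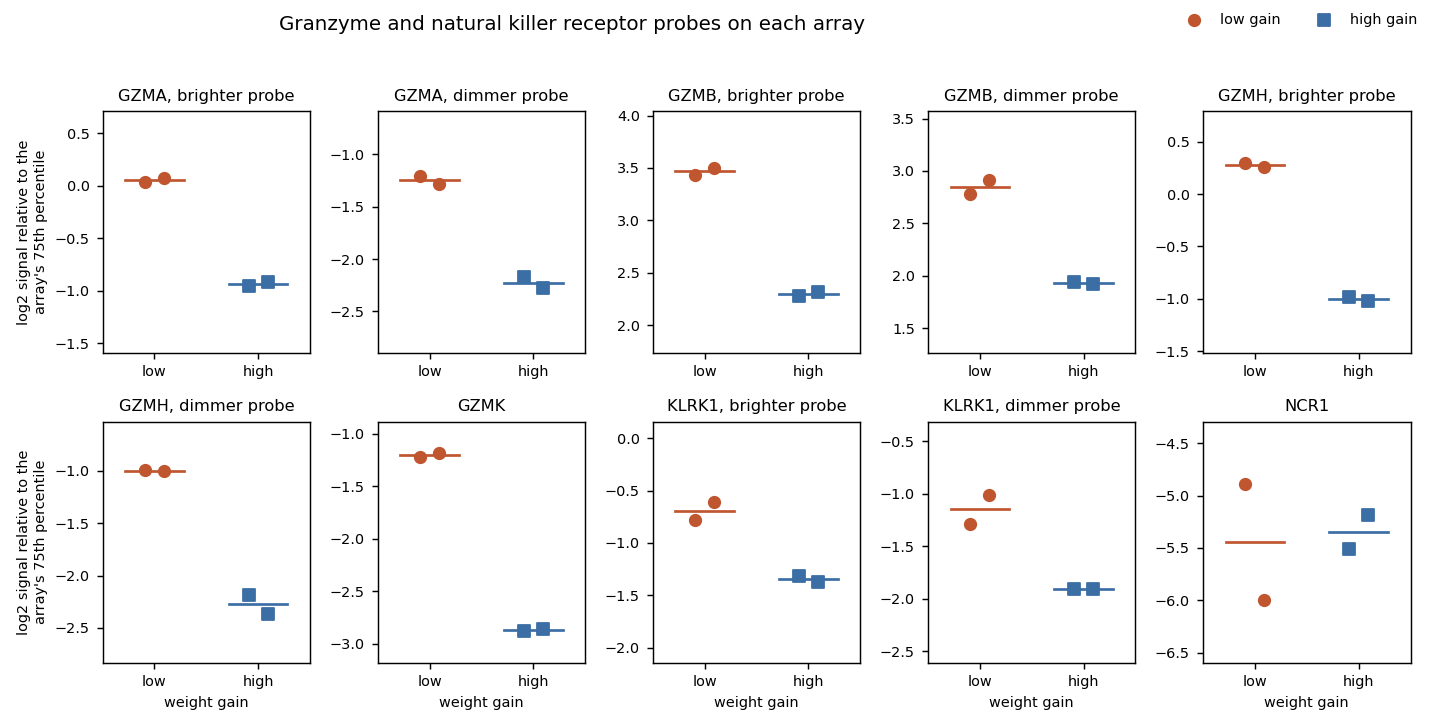
Each panel shows 1 probe on the 4 arrays, as log2 signal relative to the array's 75th percentile (vertical axis, the same span in each panel), with low-gain arrays as circles and high-gain arrays as squares. Within a group, array a is the left point, and lines are group means. The low-gain points lie above the high-gain points in 9 of 10 panels, and in the *NCR1* panel they lie on either side of them.

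Over the 4 pairings of a low-gain with a high-gain array, the brighter probes of the granzyme genes kept apart from one another. The difference ran from 1.64 to 1.69 for *GZMK* and from 1.25 to 1.31 for *GZMH*. It ran from 1.12 to 1.22 for *GZMB* and from 0.96 to 1.02 for *GZMA*. These ranges share their arrays and are descriptions. The order of *GZMB* and *GZMA* depended on the probe, since the dimmer *GZMB* probe ran from 0.84 to 0.98 and overlapped both *GZMA* probes, the dimmer of which ran from 0.89 to 1.07. The place of *GZMK* depended on the background treatment. With normexp background correction, which fits the background as a normal distribution and adds a constant of 50, the differences were 0.59 for *GZMK*, 0.62 for *GZMH*, 0.99 for *GZMB* and 0.46 for *GZMA*, so that *GZMB* came first. With bright local backgrounds replaced before the same correction, a setting added after the data were seen, they were 1.103 for *GZMK*, 1.095 for *GZMH*, 1.103 for *GZMB* and 0.82 for *GZMA*.

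*KLRK1* differed by less than the granzyme genes. Its brighter probe read -0.78 and -0.61 on the low-gain arrays, against -1.31 and -1.37 on the high-gain arrays. Its dimmer probe read -1.28 and -1.01 in low gain, against -1.91 and -1.91 in high gain. The groups did not overlap on either probe, but low-gain array b lay above low-gain array a by 0.17 and 0.27, a larger gap than the low-gain arrays had on any granzyme probe. The differences were 0.65 ± 0.11 and 0.76 ± 0.14 (SE).

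*NCR1* was close to the background. Its probe read -4.89 and -5.99 on low-gain arrays a and b, against -5.51 and -5.19 on high-gain arrays a and b. The high-gain values lay between the low-gain ones, and the difference of -0.10 ± 0.42 (SE) was smaller than its error. The processed signal, in scanner units, was 13.8 and 7.29 in low gain and 10.6 and 12.9 in high gain. The scanner software gave each *NCR1* spot an error of 14.1% to 19.5% of its signal, against at most 10.3% for the other 9 member probes. The probe was flagged well above background on all 4 arrays, but a spot median of 28 to 36 stood over a local background of 17 to 19. The fold between low-gain and high-gain arrays was 1.53 for the arrays lettered a and 0.571 for those lettered b, so no difference was detectable at this signal.

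All 10 member probes passed the filter on dim probes, and each lay well above background on all 4 arrays. Both low-gain arrays lay above both high-gain arrays for 9 of the 10 probes, as for 27.6% of all 33265 tested probes, and for 5 of the 6 genes, as for 32.6% of the 2158 tested genes. In all, 80 probes (0.24%) passed the limma threshold of 0.05 after adjustment over all probes. Among the 6 genes, 1 gene, *GZMK*, passed it, as did 0.232% of genes in this direction. A difference of at least 1 (2-fold) was present in 3 of 6, against 1.71% of all tested genes. These counts come from the contrast that chose the genes, and nothing is read from them. The median of the 6 differences was 1.08, beside 0.02 over all tested genes.

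The other genes of granule killing and NK recognition were taken from lists set by role, and counts over them use 1 probe per gene, the brightest. Together with cell type lists these 14 lists held 170 genes, of which 92 were tested. By limma, 0 of the 92 passed after adjustment in either direction, beside 0.417% of all tested genes, and 39 of the 92 (42.4%) had an unadjusted p under 0.05, beside 21.6% of all tested genes. Values below are therefore differences with their SE, and none of these genes is called changed. Nothing is read from the share of 42.4%, since the lists were chosen with earlier results of these data known.

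Of the genes that act with granzymes in the granule or death receptor route, 4 could be read. *FASLG*, the gene of a death ligand of cytotoxic cells, differed by 0.34 ± 0.13, and *CTSH*, which encodes a lysosomal protease able to process granzyme B in mice, differed by -0.34 ± 0.11. *LAMP1*, a gene of the granule and lysosome membrane, differed by -0.21 ± 0.13. *SERPINB9*, the gene of the intracellular inhibitor of granzyme B, differed by 0.06 ± 0.12 and turned to -0.02 in the values deposited by the authors. In this list 0 of 4 passed, and its median was -0.07. The perforin gene *PRF1* was not analysed here, since no probe carried one of its accessions in the table.

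The 5 measured substrates of granzymes had differences below 0 on their brightest probes, *CASP8* and *APEX1* by less than their SE. *BID*, whose product granzyme B cleaves to engage mitochondria, read 1.005 and 1.12 in low gain, against 1.65 and 1.39 in high gain, a difference of -0.46 ± 0.14. Both low-gain arrays lay below both high-gain arrays for *BID*, as for 29.2% of all tested genes. *CASP8*, an initiator caspase gene, differed by -0.03 ± 0.10, *APEX1* by -0.07 ± 0.13 and *HMGB2* by -0.24 ± 0.12. The last pair encode DNA repair and chromatin proteins cut by granzyme A in humans. On the brightest probe all 5 measured substrates were below 0, where 53.4% of all tested genes were above 0. The 2 other *CASP8* probes gave -0.09 and 0.03, on both sides of 0. The 3 other *APEX1* probes ran from -0.47 to -0.23, and the 3 other *HMGB2* probes from -0.35 to -0.22. Of the 5, 0 passed, and the median was -0.24.

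Genes of the receptors' signalling partners had differences from -0.67 to 0.19. *HCST*, the adaptor gene of NKG2D, read 2.60 and 2.66 in low gain, against 2.82 and 2.96 in high gain. Its difference was -0.26 ± 0.11, and its 2 other probes gave -0.34 and -0.25. *CD247*, which encodes the zeta chain used by NKp46 and the T cell receptor, read 3.13 and 3.21 in low gain, against 3.92 and 3.76 in high gain. Its difference was -0.67 ± 0.12 (limma adjusted p = 0.161), and its other probe gave -0.86. The adaptor genes *TYROBP* (0.19 ± 0.18) and *FCER1G* (0.08 ± 0.18) overlapped between the groups. Of 7 tested partners 0 passed, 4 had both low-gain arrays below both high-gain arrays (29.2% of all tested genes) and 0 had them above (32.6% of all tested genes), and the median was -0.23.

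**Figure D2:**
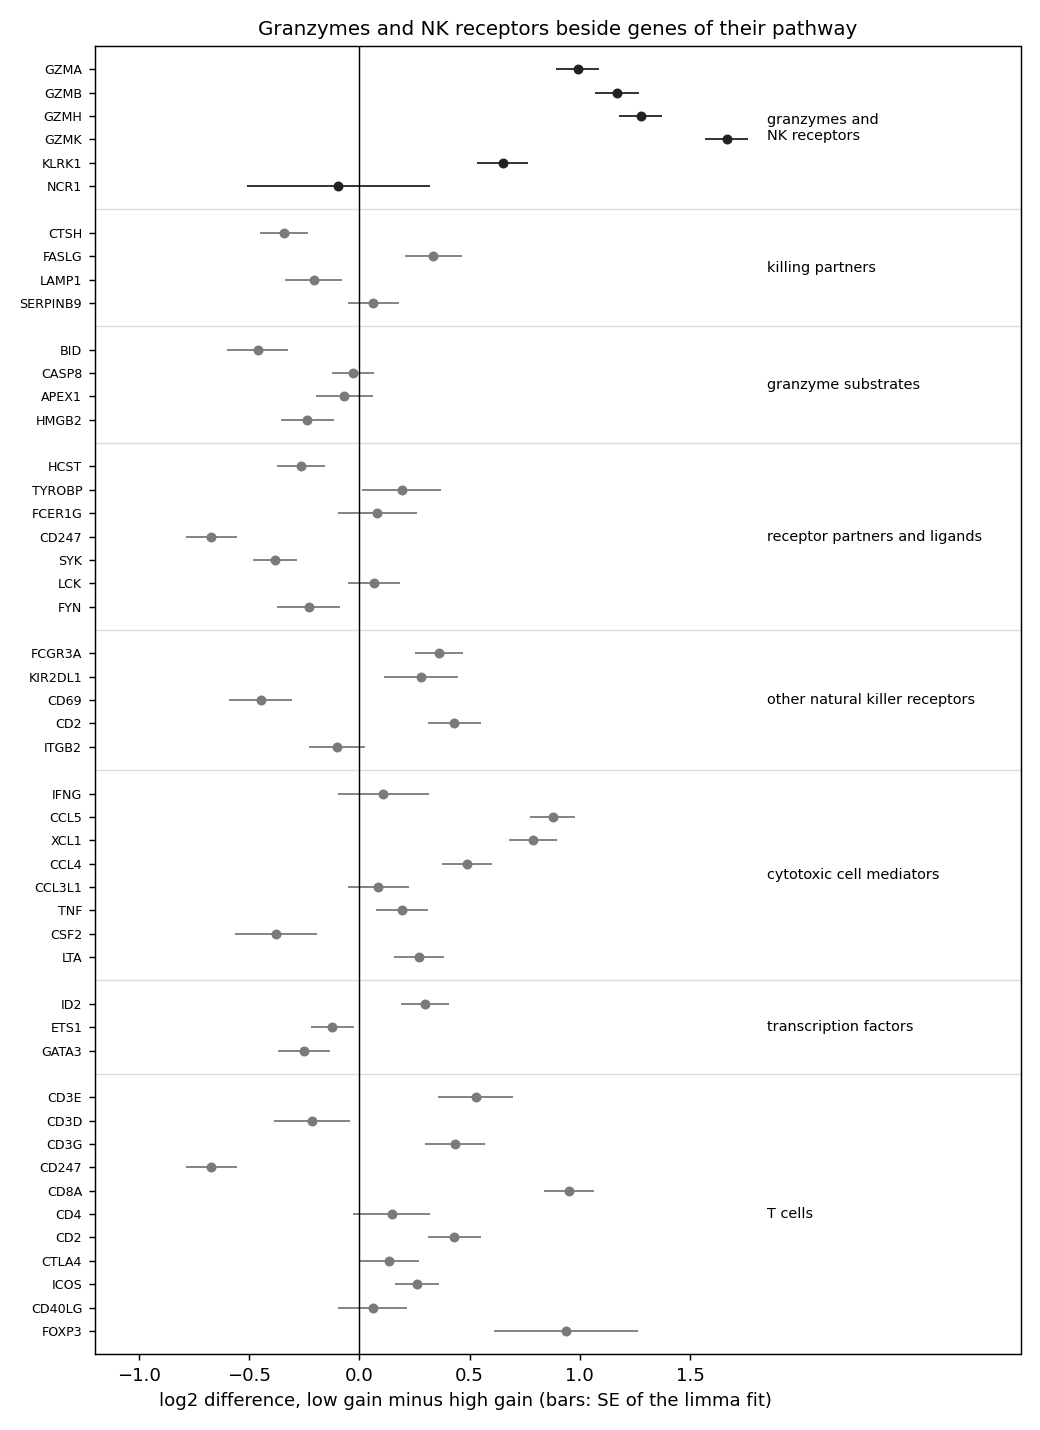
Points give the log2 difference, low gain minus high gain, of each gene's brightest probe. Bars are the SE of the limma fit (2 arrays per group). The 6 genes are black, and named genes of the 7 other groups shown are grey. Left out are the cytokines and their receptors and all cell type lists except T cells. The granzymes lie between 0.99 and 1.67, while the grey genes shown lie between -0.67 and 0.95. Genes of the lists left out lay between -1.57 and 2.57, with *S100A8* at 1.06. The gene at 2.57 was not well above background on either high-gain array.

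Other NK receptor genes went both ways. *FCGR3A*, the gene of the IgG receptor CD16, differed by 0.36 ± 0.11 with its 2 other probes at 0.38 and 0.49. *KIR2DL1*, an inhibitory receptor gene close to *NCR1* on the same chromosome, differed by 0.28 ± 0.17, and *CD2*, an adhesion receptor gene of T and NK cells, by 0.43 ± 0.12. The activation marker gene *CD69* differed by -0.45 ± 0.14 and the integrin gene *ITGB2* by -0.10 ± 0.13. The median of the 6 genes tested in this list was 0.09, and 0 of 6 passed.

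Among 8 mediators made by cytotoxic cells, the chemokine genes *CCL5*, *XCL1* and *CCL4* stood highest. *CCL5* read 3.72 and 3.77 in low gain, against 2.83 and 2.90 in high gain, a difference of 0.88 ± 0.10 (limma adjusted p = 0.115), with its other probe at 0.72. *XCL1*, whose product attracts dendritic cells that carry XCR1, read -0.62 and -0.64 in low gain, against -1.49 and -1.34 in high gain, a difference of 0.79 ± 0.11 (adjusted p = 0.139). *CCL4* differed by 0.49 ± 0.11. *CCL3L1*, also a chemokine gene, overlapped between the groups (0.09 ± 0.14), as did *IFNG*, the gene of interferon gamma (0.11 ± 0.21). In all, 5 of the 8 had both low-gain arrays above both high-gain arrays (*CCL5*, *XCL1*, *CCL4*, *TNF* and *LTA*), beside 32.6% of all tested genes. *CCL3L1*, *TNF* and *LTA* are named after their values were seen. *TNF* was at 0.19 on its brightest probe but at -0.63 on its other probe. *LTA* was at 0.27 on its brightest probe but at -0.13 on its other probe. The counts for this list therefore depend on the probe taken. The median of the 8 was 0.23, with 7 of 8 above 0 and 0 past the test.

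Cytokines that sustain cytotoxic cells and their receptors had a median of -0.08 over 14 genes, of which 7 were above 0 and 0 passed. *IL15*, the gene of a survival factor of NK cells and intraepithelial lymphocytes, differed by 0.08 ± 0.12. *IL2RG*, the common gamma chain gene through which IL-15 signals, differed by -0.60 ± 0.18, and its other probe gave -0.80. *IL2RA* differed by -0.16 ± 0.16. *IL2* differed by -0.73 ± 0.58 and was well above background on 3 of 4 arrays. Of the transcription factor genes, *ID2*, needed for NK cell development, differed by 0.30 ± 0.11, *ETS1* by -0.12 ± 0.10 and *GATA3* by -0.25 ± 0.12, with a median of -0.12 and 0 of 3 past the test.

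Markers of the cells that carry granzymes, and of their neighbours in the slice, had differences on both sides of 0, and none passed the test. Of 11 T cell genes, 9 were above 0, beside 53.4% of all tested genes, with a median of 0.26. For 6 of the 11, both low-gain arrays lay above both high-gain arrays, beside 32.6% of all tested genes. The median is the value of a marker not named here, whose other probe gave -0.20. These counts and the median therefore depend on the probe taken. *CD3E*, a T cell receptor subunit gene, read 0.77 and 0.39 in low gain, against -0.004 and 0.11 in high gain, a difference of 0.53 ± 0.17. *CD3D*, another subunit gene, differed by -0.21 ± 0.17, with its other probe at 0.08. *CD8A*, a coreceptor gene of cytotoxic T cells singled out after its values were seen, read -0.47 and -0.50 in low gain, against -1.51 and -1.36 in high gain. That difference was 0.95 ± 0.11 on the brighter *CD8A* probe but 0.03 on its other probe. The summed linear signal of the 11 genes, in units of the array's 75th percentile, was 16.5 to 16.8 in low gain and 19.3 to 20.9 in high gain, the opposite side from their median. *CD247*, which is in this list too, had the highest signal of the 11 on every array and was lower in low gain. The sum therefore mostly follows *CD247*.

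Epithelial genes lay above 0 for 9 of 9 markers, beside 53.4% of all tested genes, with a median of 0.46. Their summed signal was 839 to 875 in low gain and 693 to 762 in high gain. *FABP6* was at 0.02 ± 0.12, overlapped between the groups and turned to -0.02 with quantile normalisation. An epithelial marker not named here was at 0.44 on its brightest probe but at -0.30 and 0.34 on its 2 others. *EPCAM* differed by 0.16 ± 0.13 and *CDH1*, the E-cadherin gene, by 0.58 ± 0.10. The 5 smooth muscle markers had a median of 0.48, with *CNN1* at 0.48 ± 0.11 and *ACTA2* at -0.25 ± 0.15. Their summed signal was between 303 and 308 in low gain and between 233 and 235 in high gain. These values depend on the probe taken. The other *CNN1* probe gave 0.45, and the other *ACTA2* probes ran from -0.61 to 0.23. A marker not named here was at 0.51 on its brightest probe but at -0.34 and -0.02 on its 2 others. The other probes of a further marker ran from 0.25 to 0.50. Macrophage and dendritic cell genes lay below 0 for 7 of 7 markers, where 53.4% of all tested genes were above 0. Their median was -0.41, and their summed signal was between 7.95 and 8.08 in low gain and 10.8 on both high-gain arrays. Of these, *CD14* differed by -0.25 ± 0.14 and *CD163* by -0.41 ± 0.10.

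Neutrophil genes had a median of 0.55 over 5 markers, with 4 above 0, *S100A8* at 1.06 ± 0.19 and *S100A9* at 0.55 ± 0.22. Their summed signal was 1.06 to 1.15 in low gain and 1.46 to 2.00 in high gain, the opposite side from their median. A marker not named here differed by -1.11 ± 0.23 and had the highest signal of the 5 on every array, so the sum mostly follows that marker. B cell genes had a median of -0.02 over 5 markers and overlapping sums, 47.9 to 54.0 in low gain and 51.3 to 55.1 in high gain, with *CD79A* at -0.31 ± 0.13. The 5 markers of mast cells and eosinophils had a median of 0.24 and sums between 3.64 and 3.70 in low gain and between 3.39 and 3.41 in high gain, with *MS4A2* at 0.19 ± 0.10 and *KIT* at -0.02 ± 0.12. In each of the cell type lists 0 markers passed the test, and each tested marker was well above background on at least 1 array. The part that a different makeup of the slices has in the granzyme differences was not tested.

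The named genes closest to the granzymes over the 4 arrays were found by centring each gene on its own mean and taking the root mean square distance to the mean profile of the 4 granzyme genes. That profile stood at 0.63 and 0.65 in low gain, against -0.65 and -0.63 in high gain. The closest 5 genes outside the 6 were *ITLN2*, an intelectin gene (distance 0.07, difference 1.40), *HP*, the haptoglobin gene (distance 0.07, difference 1.42), LOC100302368 (distance 0.08, difference 1.23), the galanin gene *GAL* (distance 0.08, difference 1.17) and *CGA*, the gene of the common alpha chain of glycoprotein hormones (distance 0.09, difference 1.39). Of the granzyme genes themselves, *GZMH* lay at 0.03, *GZMB* at 0.05, *GZMA* at 0.14 and *GZMK* at 0.20 from their own mean, with *KLRK1* at 0.32 and *NCR1* at 0.80. With 4 arrays such distances largely restate the difference between groups.

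**Figure D3:**
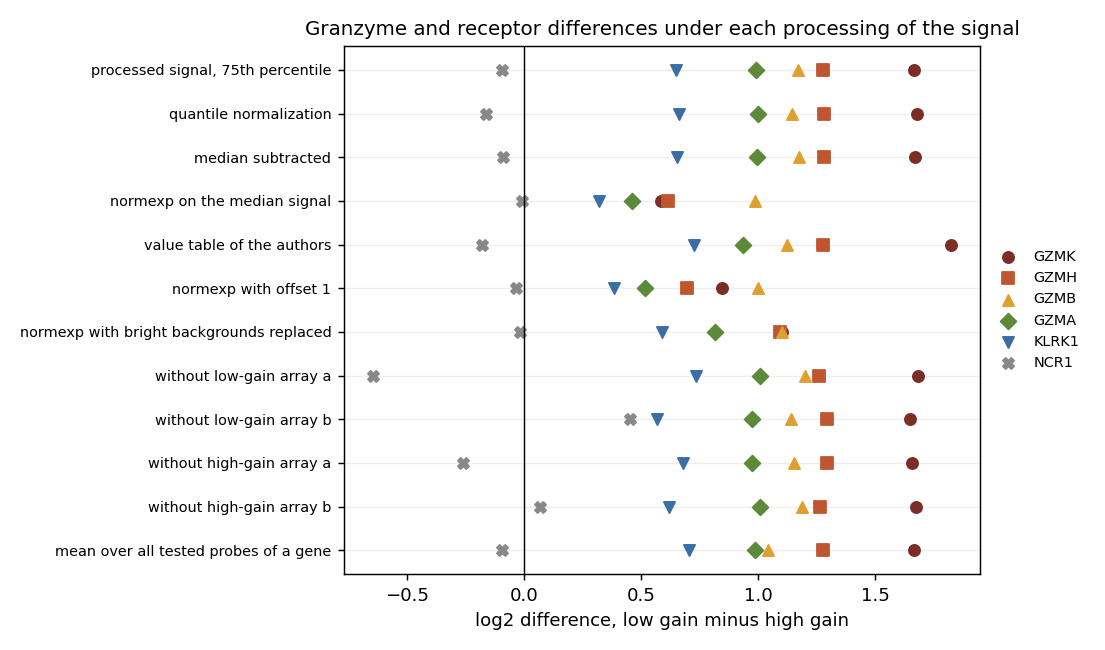
Each row is 1 way of processing the signal, or a fit without 1 array, and each symbol is the log2 difference, low gain minus high gain, of 1 gene. The granzyme genes and *KLRK1* stay to the right of 0 in every row, at 0.32 or more, their order changes with normexp, and *NCR1* changes side when low-gain array b or high-gain array b is left out.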

How the data were processed

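Cy3-labelled ileal RNA was measured on 4 single-colour Agilent arrays of 45220 spots. Per the file headers, the intensity values in the deposited scanner files were extracted with Agilent Feature Extraction 10.7.3.1. The authors' deposited value table is on a log2 scale (slopes of 1.00 to 1.01 on the log2 processed signal of spots above background) and not centred per gene, with column medians of 5.70 to 5.78. Its background treatment is unknown, and it served only as an alternative.

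From the log2 processed signal, each array's 75th percentile over its non-control spots was taken away. Outlier-flagged spots were dropped and spots of a probe averaged. Of 43603 probes, 33265 were tested, those well above background on both arrays of a group. Names came from RefSeq accessions matched without versions (5461 probes). The brightest tested probe stood for a gene. Groups were compared as low gain minus high gain with limma 3.58.1 (lmFit, eBayes) under R 4.3.3, and p-values of all tested probes were adjusted by Benjamini-Hochberg (threshold 0.05). The procedure was tested on simulated data with the same spread for every probe, set lower than on these arrays. That check does not show how well the fit works here. Other normalisations, background treatments, filters and variance priors, a block for the letter and fits without each array were tried as alternatives. All member probes were described. From role lists with at most 6 tested genes all were named, otherwise the first 4 in written order, and from cell type lists the first 2. Some listed genes enter the counts, medians and sums but are not reported here by name. Members and lists were chosen with earlier results of these data known. Precision is limited by the number of arrays. No coordinates are given, as no build is named in the files.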

Additional observations from a re-analysis of the deposited data

How the results depend on the processing

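Quantile normalisation and subtraction of the median moved no granzyme or *KLRK1* difference by as much as the spread between arrays of a group. In the values deposited by the authors, *GZMA* was at 0.93, *GZMB* at 1.12 and *GZMK* at 1.82, and averaging a gene's probes put *GZMB* at 1.04. With normexp on the median signal, *GZMA*, *GZMB*, *GZMH*, *GZMK* and *KLRK1* were at 0.46, 0.99, 0.62, 0.59 and 0.32. Local backgrounds exceeded the spot signal by over 100 units at 19 spots of low-gain array a and 18 of high-gain array b, and at 0 on the other arrays. In 2 alternatives added after the data were seen, an offset of 1 gave 0.52, 1.0002, 0.69, 0.85 and 0.38, and replacing backgrounds above the array's 99th percentile gave 0.82, 1.103, 1.095, 1.103 and 0.59, in the same order of genes.

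Leaving out each array in turn gave 0.97 to 1.01 for *GZMA*, 1.14 to 1.20 for *GZMB*, 1.26 to 1.29 for *GZMH*, 1.65 to 1.68 for *GZMK*, 0.57 to 0.73 for *KLRK1* and -0.65 to 0.45 for *NCR1*, so *NCR1* has no settled direction. *NCR1* was at -0.65 without low-gain array a, 0.45 without low-gain array b and 0.07 without high-gain array b.

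The count of probes past the limma threshold depended on the fit far more than the differences did. It was 80 here, 163 with the median subtracted, 1237 with normexp, 284 with an offset of 1, 795 with bright backgrounds replaced, 12 with no filter on dim probes, 1250 with an intensity trend and 0 with signal required on all 4 arrays, although 6117 probes had an unadjusted p under 0.05 in the fit reported here. It was 36 without low-gain array a, 37 without low-gain array b and 0 without either high-gain array, where 1 array is assumed to vary like the other group. Listed genes that passed, with genes of all 2158 tested in brackets, numbered 0 (9) here and 1 (18) with the median subtracted. They numbered 17 (177) with normexp, 4 (47) with an offset of 1 and 10 (116) with bright backgrounds replaced. With the intensity trend they numbered 20 (170), and with the mean over probes 4 (45). Members that passed numbered 1 here (*GZMK*) and 2 with the median subtracted (*GZMH* and *GZMK*). With the intensity trend, normexp or bright backgrounds replaced, 5 passed (all but *NCR1*). With an offset of 1 or the mean over probes, 4 passed (the granzymes). Without a filter, with the replicate block or with all 4 arrays required, 0 of all genes passed. The cause of these changes was not tested. With the letter as a replicate block, 0 probes passed and the differences were the same by construction. The a minus b differences of the groups correlated at -0.04 across probes, so the letters gave no sign of pairing. Low signal limits *NCR1* most.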

Other observations

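Among protein-coding genes that flank the members in the assembly, few had a tested probe. *FCAR*, the gene of an IgA receptor of myeloid cells and the immediate neighbour of *NCR1*, was not well above background on either high-gain array. Its low-gain values were -5.17 and -5.47, dim as those of *NCR1* were. A bound of 2.14-fold higher in low gain allows for no error in these values. The difference did not pass the test (limma adjusted p = 0.119). That bound sets the low-gain mean against high-gain values, each raised to the lowest value that the array flagged as well above background. *KIR2DL1*, the next gene, was at 0.28. *CLEC7A*, the gene of a fungal glucan receptor of myeloid cells and 6 genes from *KLRK1*, was at 1.38 ± 0.44 (SE, adjusted p = 0.239), while *OLR1*, 5 genes from *KLRK1*, was at 0.12 ± 0.10. These genes were chosen after their values were seen.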
